A study of Drosophila melanogaster with 4 samples.

Results

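Of the 14753 FlyBase transcripts with a value on every array of a grainy head (grh) mutant study, 92 were detected in wild-type embryos and on no probe in grhIM embryos. A probe counted as detected where at least 50% of its spots were well above background, a flag that the scanner software sets for each spot. A member had its chosen probe, the brightest of the transcript, detected on both wild-type arrays, no probe detected on either grhIM array, and a grhIM mean at least 3-fold below the wild-type mean. The members were thus chosen by the genotype difference itself, so that difference is described here and supports nothing by a test. They made up 0.717% of the 12830 transcripts detected on both wild-type arrays. The same rule with the genotypes exchanged selected 36 transcripts, whose share of those detected on both grhIM arrays was not computed.

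Total RNA of whole Drosophila embryos at late stage 16 and early stage 17 was hybridised to 1-colour arrays, 2 arrays for each genotype, all on 1 slide. The grhIM embryos were homozygotes of the genotype (+; cn, grhIM, bw, sp; +), picked by the absence of a fluorescent balancer chromosome, and the wild-type embryos were (y; cn, bw, sp; +). About 500 embryos developed at 25 °C were pooled for each array, and gut autofluorescence was used to stage them. The cn, bw and sp alleles were thus carried by both genotypes, while y was carried only by the wild-type embryos and the balancer only by the parents of the grhIM embryos, so that these differences cannot be told apart from the loss of grh. The study's methods say that the embryo collections were done in duplicate. The labels do not name the parental cultures of each pool.

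The grh gene encodes a transcription factor of the embryonic epidermis, trachea, foregut and hindgut, where it acts on genes that build and harden the cuticle and on genes of the junctions between epidermal cells. At these stages the epidermis lays down the larval cuticle and the tracheae mature, while muscle, nerve cord and midgut are also close to their larval form. Whole embryos hold all of these tissues, and in such RNA fewer cells of a type cannot be told from less RNA per cell. The grhIM allele has a premature stop codon, so the level of its own transcript does not check the labels. The brightest of the 3 grh probes read 1.13 and 1.31 in grhIM and 0.17 and 0.35 in wild-type, as log2 processed signal relative to the array median, the scale used for every level here unless another is named. It was detected on all 4 arrays.

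Of the gene probes, 75.9% were detected in grhIM replicate 1 and 80.0% in grhIM replicate 2, against 77.6% in wild-type replicate 1 and 83.1% in wild-type replicate 2. The ranges of the genotypes overlapped. No gene spot was saturated.

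The array names these transcripts only by accession, and the RefSeq gene table paired 1 of the 92 with gene entries. The others are therefore described by their rank, from the largest difference between genotypes to the smallest, and no role is given for them here. None of the 234 genes that the study sorted into functional categories could be matched to a member through these tables.

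In grhIM embryos the 92 members lay in a narrow band at the bottom of the scale, since the rule kept only transcripts undetected there. Their levels had a lowest value of -6.52, a median of -6.15 and a highest value of -4.18 in grhIM replicate 1, and of -7.06, -5.96 and -4.55 in grhIM replicate 2. In wild-type embryos the corresponding levels were -4.20, -2.56 and 6.11 in replicate 1, and -4.94, -2.67 and 5.56 in replicate 2. Most of the spread among members was therefore in wild-type, where they ranged from barely detected to brighter than 90.8% of detected transcripts. No member's groups overlapped, as the rule nearly ensures, and in 30.8% of the 12830 detected transcripts both grhIM values likewise lay below both wild-type values. The smallest gap between the lower wild-type and the higher grhIM value was 0.27 and the median gap 2.76.

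**Figure D1:**
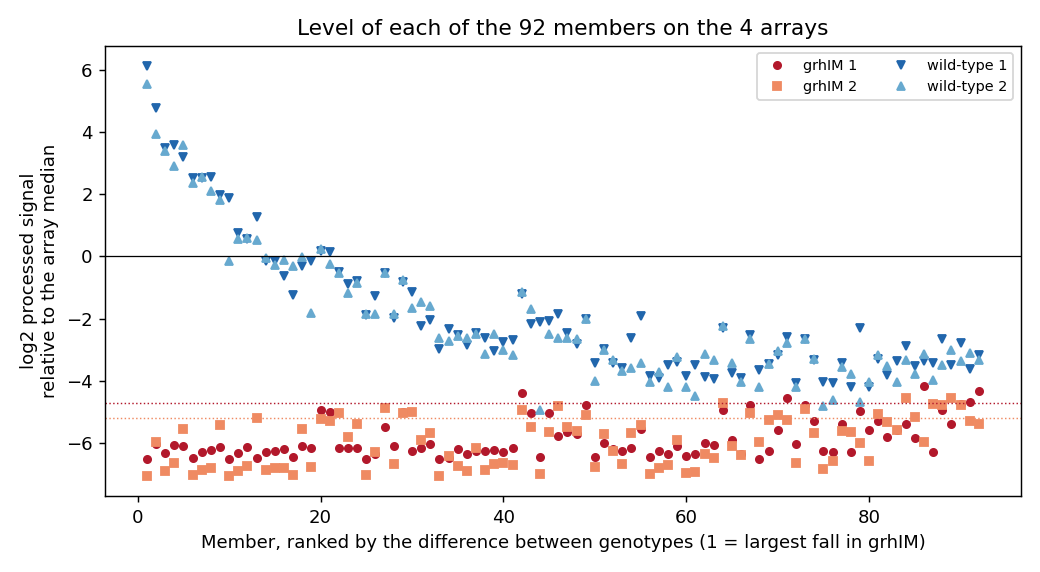
Level of each member in the 2 grhIM and 2 wild-type pools, as log2 processed signal relative to the array median (vertical axis), with members ranked by the difference between genotypes (horizontal axis). The dotted lines mark the lowest signal of any probe well above background on grhIM replicate 1 (-4.72) and grhIM replicate 2 (-5.21), and the solid line the array median. The grhIM values stay between -7.06 and -4.18 whatever the wild-type level, as the rule nearly ensures.

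A level this low holds little information on its own. On grhIM replicate 1, 44 members had no significantly positive signal after background subtraction, and on grhIM replicate 2, 27 members, all of them among the 44. For such spots the software writes a small positive stand-in value, so the order of such values carries no meaning. In 48 members the signal was positive and significant on both grhIM arrays, though not well above background. No member lacked a positive and significant signal on a wild-type array, where the rule required detection, so this count was nearly fixed in advance.

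The signal before background subtraction shows the same band without that step. The raw median spot signal of the members in grhIM had a lowest value of 49.3, a median of 59.4 and a highest value of 81.0 in replicate 1, and of 52.5, 65.4 and 77.0 in replicate 2. In wild-type it was 76.0, 115 and 28805 in replicate 1, and 71.0, 122 and 22457 in replicate 2. The negative-control spots of each array, which match no fly transcript, had a median of 53.0 in grhIM replicate 1 and 55.5 in grhIM replicate 2, against 53.0 and 57.5 for the wild-type pools. At or below the 95th percentile of those controls were 60 members on grhIM replicate 1 and 35 on grhIM replicate 2, with 32 on both, against 0 members on either wild-type array. The detection flags in the rule nearly fix this contrast, so it is a description only. The highest control read 68.0 in grhIM replicate 1, where 79 members did not pass it, and 84.5 in grhIM replicate 2, where 92 did not. In wild-type replicate 1 it read 221.5 and 64 members did not pass it, and in wild-type replicate 2 it read 69.0 and all members passed it, so that on wild-type replicate 1 most members were dimmer than the brightest control spot.

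**Figure D2:**
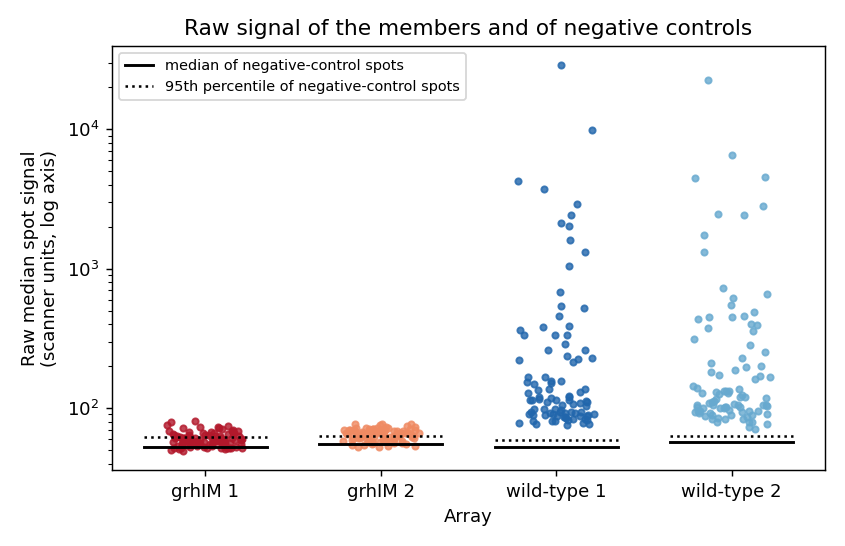
Raw median spot signal of the 92 members (points; log axis, scanner units) on each array, with the median and the 95th percentile of the negative-control spots as solid and dotted lines. Members in grhIM lie between 49.3 and 81.0 on both arrays, around the controls, while wild-type values run up to 28805.

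Because the members were not detected in grhIM, their fall has only a lower bound. For that bound, each grhIM array was given either the lowest signal of a probe well above background on that array or the member's own signal, whichever was higher, and the mean of these was set against the wild-type mean. The bounds ran from at least 1.46-fold to at least 1782-fold lower in grhIM, with a median of 4.61-fold. These bounds cover the grhIM side only, and the spread between the wild-type pools is not in them. They hold only for the background-subtracted signal, and their median was smaller in signals that keep or model the background. In the background-subtracted signal the bounds reached 100-fold for 9 members, 10-fold for 29 and 3-fold for 61. For the remaining members the bound was under the 3-fold of the rule.

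With grhIM values all near the floor, the differences were ordered much as the wild-type levels were. Above the array median in wild-type were 14 members, 15.2% of them, against 76.4% of all 12830 detected transcripts. From 8-fold below the median up to it were 40 members (43.5%, against 17.7%), and further down were 38 (41.3%, against 5.93%). Seen the other way, 14 of 9804 detected transcripts above the median were members (0.143%), 40 of 2265 in the middle range (1.77%) and 38 of 761 in the lowest (4.99%). The share thus grew toward the detection limit. The rule itself favours this, since a transcript near the limit needs only a small fall to go undetected in grhIM. A stronger dependence of dim transcripts on grh cannot be read from it.

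**Figure D3:**
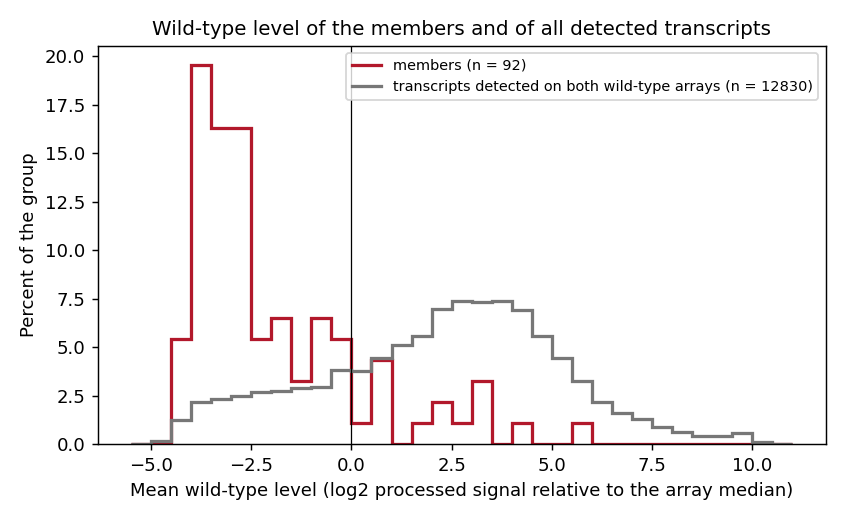
Distribution of the mean wild-type level (log2 processed signal relative to the array median) of the 92 members and of the 12830 transcripts detected on both wild-type arrays, as a percent of each group in bins of 0.5. Members crowd below the median, marked by the vertical line, and 14 lie above it.

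The 14 members above the array median in wild-type had the 14 largest bounds. Their raw signal in grhIM had a median of 54.3 in replicate 1 and 58.1 in replicate 2, with a highest value of 71.0 over both. In wild-type the lowest was 458 in replicate 1 and 489 in replicate 2, and the medians were 2080 and 2089. The bounds of these members ran from 36.0-fold to 1782-fold, with a median of 163-fold. In 9 of the 14, the signal was not positive and significant on either grhIM array.

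The transcript FBtr0077271 stood first. In grhIM its signal was not positive and significant on either array, so its processed values there are stand-ins. Its processed signal was 3.89 and 2.90 in grhIM embryos, against 24716 and 19031 in wild-type embryos. On the log2 scale these were levels of -6.52 and -7.06 in grhIM and 6.11 and 5.56 in wild-type. In wild-type it was brighter than 90.8% of detected transcripts, and in grhIM its raw signal of 57.0 and 53.8 was that of a negative control. The bound was at least 1782-fold lower in grhIM in the processed signal. In the study's own normalised intensities the fold of this transcript was 441.

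The second was FBtr0081122, which the RefSeq table lists under CG10570 and CG42502, as the main and the upstream reading frame of 1 transcript on chromosome arm 2L. Its processed signal was 5.42 and 6.15 in grhIM, against 9758 and 6152 in wild-type. Its levels were -6.04 and -5.97 in grhIM and 4.77 and 3.93 in wild-type, the wild-type mean being above that of 76.5% of detected transcripts. It was at least 637-fold lower in grhIM in the processed signal, and its fold was 122 in the study's own normalised intensities.

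The gene next to CG10570 in Release 6 of the genome, with 0 genes between them, is CG17325, whose transcript carries CG42305 as its upstream reading frame. It was not a member, because 1 of its 2 probes was detected in grhIM. That probe gave a processed signal of 56.2 and 73.4 in grhIM, against 86496 and 39751 in wild-type, a difference of -9.80 on the log2 scale. The dimmer probe read 4.81 and 7.23 in grhIM, not well above background, against 99.5 and 57.7 in wild-type, at least 6.22-fold lower in grhIM. The fall of CG17325 was therefore measured on its brighter probe, while that of CG10570 has only its bound, so the sizes cannot be compared.

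**Figure D4:**
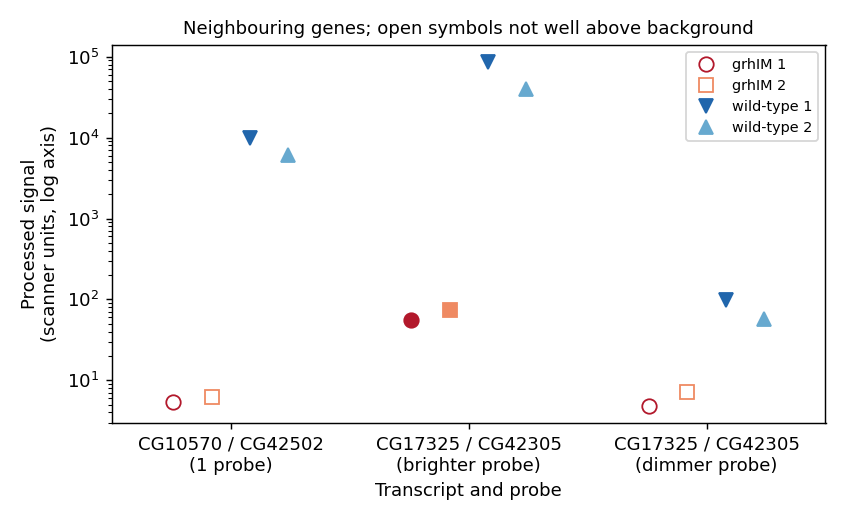
Processed signal (log axis, scanner units) of the neighbouring transcripts of CG10570 / CG42502 and CG17325 / CG42305 in the 2 grhIM pools and the 2 wild-type pools, 1 column per probe, with open symbols where the probe was not well above background. The brighter CG17325 probe stays detected in grhIM at 56.2 and 73.4, while CG10570 reads 5.42 and 6.15.

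The next 6 members of the ranking, none of them paired with a gene name by the RefSeq table, had wild-type levels between 2.12 and 3.58. Their bounds lay between 158-fold and 339-fold. The third member read -6.32 and -6.92 in grhIM and 3.48 and 3.40 in wild-type, a bound of 339-fold. The ninth read -6.14 and -5.42 in grhIM and 1.99 and 1.82 in wild-type, a bound of 117-fold. The wild-type pools agreed within 1 log2 unit on each of the first 9 members.

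At the other end the falls were small in absolute signal. The 3 smallest bounds were 1.46-fold, 1.54-fold and 1.78-fold. The member with the smallest read -6.25 and -6.83 in grhIM and -4.03 and -4.80 in wild-type, or processed signals of 4.67 and 3.38 in grhIM against 21.8 and 14.5 in wild-type. The 3 members just inside the threshold differed by -1.68, -1.63 and -1.62 on the log2 scale, and the 3 transcripts just outside by -1.54, -1.54 and -1.49. The values show no break at the threshold. In all, 144 transcripts met the detection criteria, of which 52 fell short of 3-fold.

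Other probes of the same transcripts had no part in choosing members beyond being dimmer than the chosen probe and undetected in grhIM. Of the 92 members, 81 had a single probe and 11 had more, with 13 further probes between them. Of these 13, 9 were detected on both wild-type arrays, 1 on 1 of them and 3 on neither. All but 1 were lower in grhIM, and 10 were at least 3-fold lower. Since the rule keeps every probe undetected in grhIM, a probe detected in wild-type is lower in grhIM nearly by construction. These counts are therefore a description, and no share over other transcripts was computed. The second probe of the third member read -6.25 and -6.83 in grhIM and 0.25 and -0.24 in wild-type. That of the ninth read -6.05 and -4.74 in grhIM and 1.57 and 1.01 in wild-type, and that of the thirteenth -5.41 and -6.80 in grhIM and 0.39 and -0.41 in wild-type. Each of these 3 transcripts was therefore detected in wild-type by both of its probes, and in grhIM by neither, as the rule requires. The exception was the dimmest probe of member 79, at -6.47 and -7.01 in grhIM and -6.75 and -6.80 in wild-type, which was not detected on any array. Probes of 1 transcript share the same RNA and are not replicates.

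The wild-type pools, which the rule did not compare, differed more on the members than on all detected transcripts, most of which were brighter. The median difference between the pools, without sign, was 0.31 for members and 0.18 for all detected transcripts. At least 2-fold apart were 5 of 92 members (5.43%), against 0.974% of the 12830 detected transcripts. All 5 were higher in wild-type replicate 1, as were 0.631% of detected transcripts by that margin. Among transcripts at or below the array median, 4 of 78 members were that far apart, against 1.88% of those detected. Levels are not matched there either. More than 8-fold below the median were 38 of these members, against 761 of the 3026 detected transcripts. A trait of dim probes and a trait of the members cannot be told apart here. With 1 array for each pool there is no test of this difference. Wild-type replicate 1 was above replicate 2 in 60.9% of members and in 46.5% of detected transcripts.

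The widest difference was that of member 44, at -6.44 and -7.01 in grhIM and -2.10 and -4.94 in wild-type. Member 79 read -4.96 and -6.01 in grhIM and -2.31 and -4.69 in wild-type, and its second probe -6.29 and -6.86 in grhIM and -2.60 and -5.46 in wild-type. Member 55 read -5.54 and -5.43 in grhIM and -1.91 and -3.44 in wild-type, and its second probe -5.45 and -5.86 in grhIM and -2.21 and -3.72 in wild-type. For both members with more than 1 probe detected in wild-type replicate 1, the second probe therefore repeated the difference between the pools. Member 10, one of the 14 bright members, read -6.51 and -7.05 in grhIM and 1.90 and -0.14 in wild-type, and member 19 read -6.17 and -6.79 in grhIM and -0.14 and -1.82 in wild-type. For these 5 the size of the fall depends on which wild-type pool is used, while each wild-type value lies above both grhIM values.

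**Figure D5:**
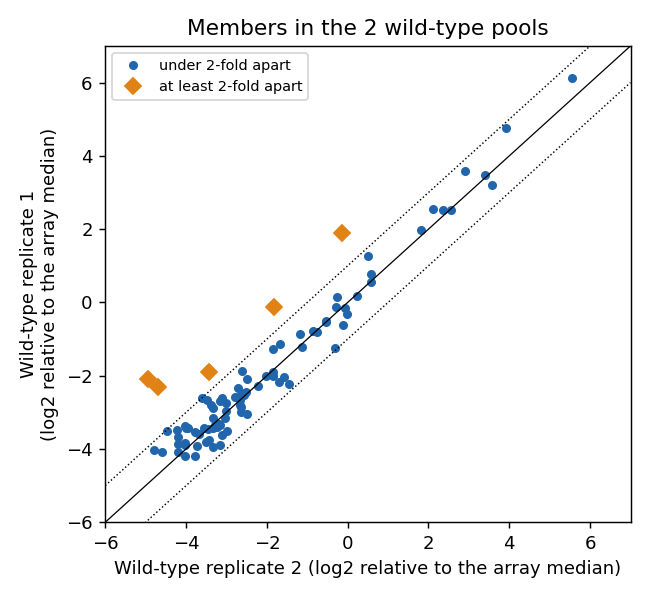
Level of each member in wild-type replicate 1 (vertical axis) against wild-type replicate 2 (horizontal axis), as log2 processed signal relative to the array median, with the line of equality and dotted lines 2-fold to either side. The 5 diamonds, all on the side of replicate 1, are members at least 2-fold apart.

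In a fit over all 20349 targets tested, with limma and Benjamini-Hochberg adjustment at 0.01, 78 of the 92 members were called lower in grhIM. Over all targets 5.26% were called lower, and 9.34% in either direction, and of the FlyBase transcripts alone 5.20% were called lower. The rule used this contrast, so the count of members adds nothing to it. All 14 members above the array median were called, 39 of the 40 in the middle range and 25 of the 38 in the lowest. In 9 of the 14, 11 of the 40 and 7 of the 38, neither grhIM array had a positive and significant signal. The fit used stand-in values for these, and their spread is not that of measured signal. Without wild-type replicate 1, where the remaining wild-type array is assumed to vary like the grhIM arrays, limma called 0 of 21669 targets and 0 members, the smallest adjusted p being 0.0108. Unadjusted p was then under 0.05 for 8440 targets, against 7095 in the fit of all 4 arrays, and for 89 members. The median bound of the members was 4.55-fold without that array.

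Fewer members met the 3-fold rule in signals without the background subtraction of the software. In the raw median signal of the same spots, 30 members were at least 3-fold apart. The study's table of all arrays also differs in its scaling and in the targets it lists, and 84 of the members were in it. Their median intensity was 63.0 in grhIM and 129 in wild-type, and all 84 were lower in grhIM with no overlap between genotypes, as were 32.8% of the detected transcripts in that table. The median fold between wild-type and grhIM was 2.07 there, and 30 were at least 3-fold apart. All 14 members above the array median were among those 30.

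The 36 transcripts with the opposite pattern, detected in grhIM and not in wild-type, were fewer and dimmer at the top. They had 3 transcripts above the array median in grhIM, against the 14 members that passed it in wild-type. The median of their bounds was 7.04-fold, against 4.61-fold for the members, and their largest 90.6-fold, against 1782-fold. The bright end of the pattern was thus longer among transcripts not detected in grhIM, while the typical bound was no larger. The share of the 3 among transcripts detected in grhIM was not computed. The 36 were counted under the main processing only. Of the probes, 77.6% and 83.1% were detected on the wild-type arrays, against 75.9% and 80.0% on the grhIM arrays. What this adds to the difference between the counts was not tested.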

How the data were processed

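Spot values were the processed signal intensity and the detection flags (other values, 0 or 1) of the deposited scanner files, which the authors extracted with Agilent's software, Feature Extraction 10.7.3.1 per the file headers (probe grid on dm3). This signal is background-subtracted. The deposited table of all arrays holds the authors' intensity per target, normalised over all arrays by multiple loess per the study, and members in grhIM read 49.5 to 85.0 there, close to the raw signal, from which it was inferred that the background was not subtracted. Control, outlier and non-uniform spots were left out, spots of a probe averaged, and log2 taken minus the median of the array over gene probes. A detection flag had to be set on at least 50% of a probe's spots. The brightest probe stood for its target.

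For the fit over all targets, cyclic loess (span 0.7, 3 iterations) was applied to the processed signal, which is not the multiple loess of the study, and limma 3.58.1 in R 4.3.3 with eBayes compared the genotypes, 2 arrays each. A target was tested if detected on both arrays of a genotype, and called at an adjusted p of 0.01. The number of arrays limits the precision. The script was tested on simulated data. Tables and figures used Python 3.11.15, pandas 2.3.3 and matplotlib 3.10.9.

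The members and lists were chosen with earlier results of these data known. Named were grh, members that the tables pair with a gene, the extremes of the bounds and the threshold neighbours, with at most 2 accessions. Members 10, 13, 19, 44, 55 and 79, the ninth, and CG17325 were singled out after their values were seen. Gene lists by symbol, tissue markers and promoter motifs could not be applied to unnamed accessions. RefSeq names came from the Release 6 table, which held 34 of the transcript targets. Alternatives covered scaling, background, filters, probes, thresholds, left-out arrays and the replicate block.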

Additional observations from a re-analysis of the deposited data

How the results depend on the processing

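The 92 members met the rule under all 4 other scalings, and 80 met it whichever 1 array was left out, the counts then being 93 to 126. With values that keep or model the background the count was 30 in the deposited table, 30 in the raw median signal and 26 with normexp (offset 50) on the median signal, which changes the background model, the signal column and the offset together. The last 2 settings and all alternatives for the wild-type pools were chosen after seeing the data. In every setting 26 members met the rule, including all 14 above the array median in wild-type. A threshold of 8-fold left 47, and all gene accessions gave 191. The median bound was 4.61-fold, and 1.85-fold in the deposited table, 1.69-fold in the raw signal, 2.09-fold with normexp and 3.93-fold to 5.45-fold without 1 array.

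Over all targets limma called 1900, and 624 with normexp, 882 without a filter on dim probes, 4250 at an adjusted p of 0.05, and 0 to 1733 with 1 array left out. The 0 came without wild-type replicate 1, where the other wild-type array is assumed to vary like the grhIM arrays and 8440 targets had an unadjusted p under 0.05. Of members, 78 were called, 10 with normexp and 0 to 88 with 1 array left out. The labels do not say whether same-numbered pools were collected together. The deviations of the same-numbered pools correlated at 0.249 over targets, with 2 pairs. With the replicate block 3166 targets and 90 members were called. The members at least 2-fold apart between wild-type pools were 5, and 3 in the deposited table, 3 in the raw signal and 65 with normexp. A background kept in the signal, or an added offset, shrinks folds of dim probes by construction; the causes of the other changes were not tested. For the members run singly (ranks 1 to 3, the one just inside the threshold and the 3 smallest bounds), no difference changed sign, the last 3 having no value in the deposited table. The sizes did change. The difference of rank 1 was -12.62, and -8.78 in the deposited table, -8.80 in the raw signal and -7.62 with normexp. Normexp on the mean signal and the promoter motif were not run. A filter on detection on all 4 arrays leaves no member to test. The number of arrays and the signal over background limit what can be said of the 38 dimmest members.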

Other observations

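The rule was applied to transcripts with a FlyBase accession. Among the other accessions of the array, mostly clones, 99 targets met it too, of which 6 were above the array median in wild-type and 2 were paired with a name in the RefSeq table, CG9759 and tun. No test was run on them.

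Of the 92 members, 9 had an accession number within 5 of another member's. The share for other transcripts was not computed, so nothing is read from this count. Members 44 and 55, both at least 2-fold higher in wild-type replicate 1, were one such pair. Accession numbers are no coordinates, and whether these transcripts neighbour each other in the genome was not tested.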
